A study of Mus musculus with 6 samples.

Results

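Transcripts of 10 genes that protect cells from oxidants were followed in mouse hearts under pressure overload, with and without miR-204. They are Nqo1, Hmox1, Gclc, Gclm, Txnrd1, Gstm1, Cat, Sod2, Gpx3 and Prdx1. Every row of the deposited count table with one of these symbols was taken, with no threshold on its values, and each symbol matched 1 of 24404 rows. All 10 passed the filter on low counts, which left 12487 genes. WT-TAC denotes hearts of wild-type mice and KO-TAC hearts of miR-204-/- mice. Both groups had transaortic constriction, an operation in which a band around the aorta makes the left ventricle pump against a higher pressure, and both were sampled 5 weeks later. Each group had 3 libraries, numbered as replicates, and whether a number shared by both groups pairs their samples was not settled. No unoperated heart was analysed here, so each value compares the genotypes after surgery and not surgery with its absence. The labels used here give no strain, age or sex, and do not say whether a sample is 1 animal. If samples were not separate animals, the p values measure only the spread between these samples.

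NRF2, the protein of Nfe2l2, is a transcription factor that KEAP1 holds in the cytoplasm and marks for degradation. Oxidants and electrophiles modify KEAP1, and NRF2 then enters the nucleus, pairs with small MAF proteins and binds antioxidant response elements near genes for glutathione synthesis, quinone and heme breakdown, conjugation and thioredoxin reduction. BACH1 competes for such elements and is known as a repressor of Hmox1. Of the 10 genes, Nqo1, Gclc, Gclm, Txnrd1, Gstm1, Hmox1 and Prdx1 are widely described as NRF2 targets, whereas Cat, Sod2 and Gpx3 encode enzymes that remove hydrogen peroxide or superoxide and also answer to other factors. In the heart, mitochondrial respiration is a main source of superoxide, and pressure overload is known to raise oxidant load.

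The core of the antioxidant response element, TGACNNNGC, was searched on both strands of RefSeq promoters (GRCm38.p6, 250 bases before to 50 bases after each start), since these letters are what NRF2 with a MAF partner is known to bind. Of the 10 genes, 8 had an entry, with 11 promoters between them, and Hmox1 and Gclc had none. The core was found for 3 of the 8 genes, or 37.5%, and for 17.1% of the 9460 tested genes with an entry. Per promoter the shares were 27.3% of 11 and 12.4% of all 32851. The 3 matches are printed because they are the stretches that the pathway's own factor could read, with 10 bases on each side and the core in capitals. Each lies on the strand opposite to its gene and is printed 5′ to 3′ on that strand. They lie at chr3:122245413-122245441 for Gclm, chr4:116685456-116685484 for Prdx1, and chr10:82859104-82859132 for Txnrd1, where the start used is 1 of 3 in the table.
Gclm: tcgtgagagtTGACGGTGCgcccgggagc
Prdx1: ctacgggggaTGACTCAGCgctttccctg
Txnrd1: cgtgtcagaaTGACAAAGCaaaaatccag

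A match is a description of the letters, not a bound site, and a window without one says nothing about NRF2.

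The microRNA that KO-TAC hearts lack reads its targets mainly through its seed, bases 2 to 8, shown in capitals in the mature strand (RefSeq, GRCm38.p6, chr19:22750610-22750631, plus strand). The matching letters in a messenger RNA are AAAGGGA. In the longest annotated 3' UTR of a coding transcript (GENCODE M21), 1 of the 10 genes held them, Prdx1, as did 17.0% of 11688 tested genes with a 3' UTR. UTR lengths differ between genes, from 434 bases in Gstm1 to 4963 in Sod2, so these shares are not of equal windows. The Prdx1 match starts at base 1303 of a 1566-base UTR and is in 1 of the 2 coding transcripts of Prdx1 with an annotated 3' UTR. The microRNA and that site are printed because this was the only match to the deleted microRNA in the 10 UTRs searched, and a match of letters does not show that the site is used.
mmu-miR-204-5p: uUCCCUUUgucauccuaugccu
Prdx1 site: gcctggtctttAAAGGGAaaaaaaggctt

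The libraries held 6411538 to 8571737 counts, and no library pair was alike within sampling noise, so none was counted as a repeat of another. Heart muscle markers (Myh6, Tnnt2, Tnni3, Actc1, Myl2, Ttn and Ryr2) were present in each library. They made up 12.7% to 19.8% of the library size after TMM scaling. The column of KO-TAC replicate 3 carries the number of WT-TAC replicate 3, its closest library, before its library index. Of all 15 library pairs, these libraries were the closest. The index is that of KO-TAC replicate 3 alone, but the description of that sample has a different number before it. Which number is right was not settled. The column was used as KO-TAC replicate 3, and the values of the 10 genes without it are also given. Across all 12487 tested genes, 3 were called changed at an adjusted p under 0.05 (edgeR's quasi-likelihood test, Benjamini-Hochberg adjustment), which is 0.024% of them. Levels are given as CPM, counts scaled to a common library size after TMM, and differences as the log2 fold change with its standard error (SE), positive where KO-TAC was higher.

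None of the 10 genes was called changed between the genotypes: 0 of 10 had an adjusted p under 0.05 in edgeR, and each had an adjusted p of 0.999. At an unadjusted p under 0.05 there was 1 of 10, Gpx3, against 2.93% of all tested genes. DESeq2 and limma-voom also called 0 of 10. The 10 log2 fold changes were above 0 for 5 genes and below 0 for 5, from −0.90 for Gpx3 to 0.26 for Cat, with a median of 0.0019 beside 0.0012 over all tested genes. Without KO-TAC replicate 3 the split was 2 above and 8 below, with a median of −0.16 beside −0.0029 over all tested genes, and 0 of 10 had an unadjusted p under 0.05 in edgeR. Without WT-TAC replicate 3 it was 7 above and 3 below. Groups did not overlap for 1 of the 10, Cat, with all KO-TAC libraries above all WT-TAC libraries, where 4.26% of all tested genes had that order. No gene of the 10 had all KO-TAC libraries below, against 3.72% of all tested genes. Leaving Gpx3 aside, the fold changes lay between 0.79 for Hmox1 and 1.20 for Cat. The intervals of the fold change (95%, from the test's own distribution) were narrowest on the log2 scale for Cat, from 0.906 to 1.58, Txnrd1, from 0.764 to 1.36, and Prdx1, from 0.777 to 1.41, and widest for Hmox1, from 0.409 to 1.53. For those genes these data therefore do not separate no change from changes within these bounds.

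**Figure D1:**
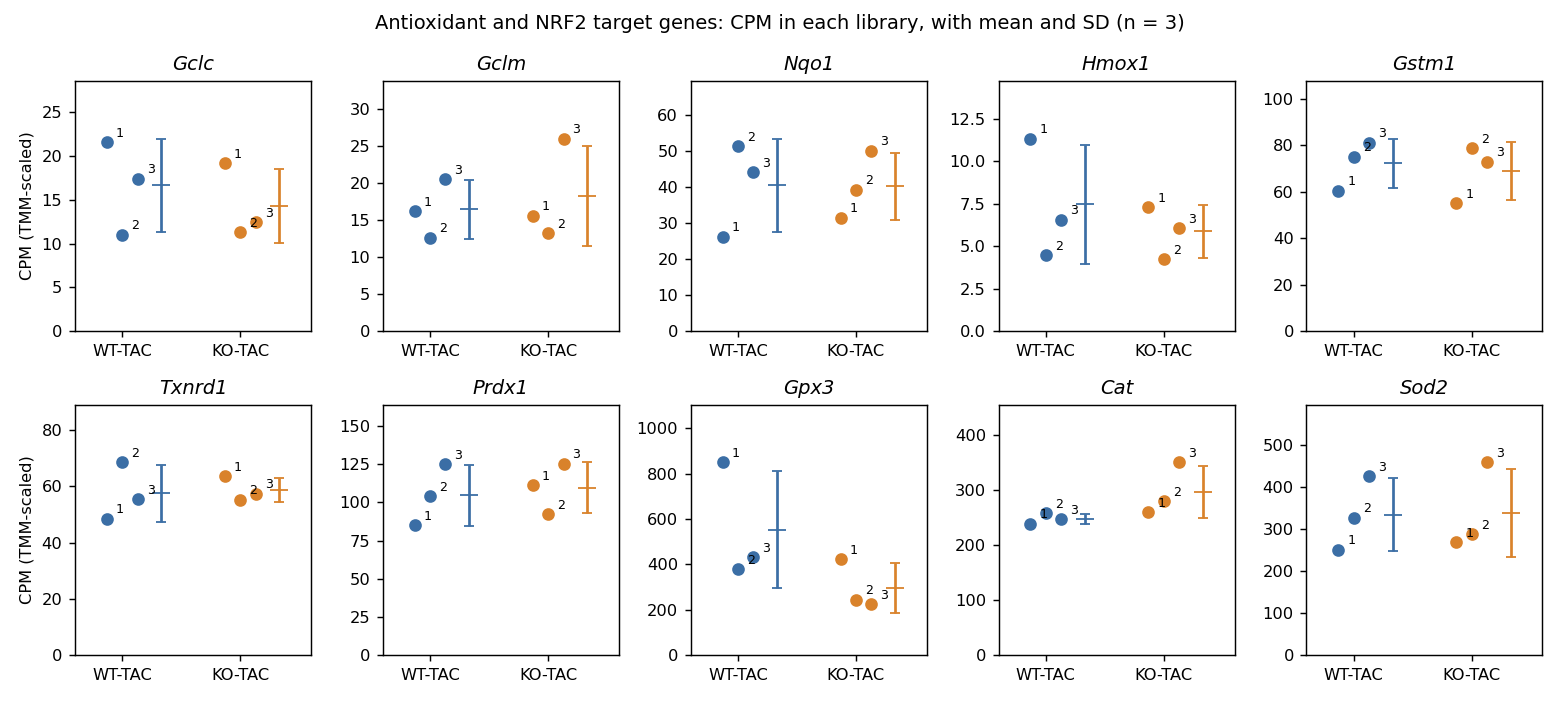
CPM of each gene (vertical axes from 0, TMM-scaled) in the WT-TAC (blue) and KO-TAC (orange) libraries, numbered by replicate, with the mean and SD of each group (n = 3) beside the points. The groups overlap in every panel except that of Cat, and WT-TAC replicate 1 stands alone at 850 CPM for Gpx3.

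Glutamate-cysteine ligase, which makes the first and limiting step of glutathione synthesis, has a catalytic subunit, Gclc, and a modifier subunit, Gclm, that makes the catalytic one more efficient. Gclc stood at 21.6, 11.02 and 17.4 CPM in WT-TAC replicates 1 to 3 and at 19.1, 11.3 and 12.4 in KO-TAC replicates 1 to 3. Its groups overlapped almost fully, with replicate 2 low in both genotypes, and its log2 fold change was −0.22 ± 0.32 (SE), and −0.13 without KO-TAC replicate 3. Gclm stood at 16.2, 12.6 and 20.5 CPM in WT-TAC and at 15.6, 13.2 and 26.0 in KO-TAC. Its highest library was KO-TAC replicate 3, and its log2 fold change was 0.15 ± 0.31 with all libraries and −0.19 without that one. Gm6061, a transcribed processed pseudogene on the same strand, and Gm17494, on the opposite strand, overlap Gclm. Neither has counts of its own here, and reads they share with Gclm cannot be told apart. The subunits did not keep a fixed proportion: the ratio of Gclc to Gclm CPM was 1.33, 0.873 and 0.847 in WT-TAC and 1.22, 0.853 and 0.477 in KO-TAC. Its means were 1.02 ± 0.27 and 0.852 ± 0.37 (SD, n = 3), with an exact two-sided permutation p of 0.5, where 3 against 3 samples cannot go below 0.1. Without length scaling the ratio shows only how the balance moves between libraries, not which subunit is more abundant.

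Nqo1 encodes a reductase that turns quinones into hydroquinones without a radical step, and its transcript is a standard readout of NRF2. It stood at 26.3, 51.3 and 44.1 CPM in WT-TAC and at 31.6, 39.2 and 50.1 in KO-TAC. Replicate 1 was the lowest of each genotype, and the groups covered nearly the same range. The means were 40.6 ± 12.9 and 40.3 ± 9.31 CPM (SD, n = 3), with a log2 fold change of −0.012 ± 0.26 (SE) and an interval of the fold change from 0.669 to 1.47. Without KO-TAC replicate 3 the log2 fold change was −0.20.

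Hmox1, heme oxygenase 1, splits heme into biliverdin, iron and carbon monoxide, and is induced in stressed myocytes and in macrophages that take up red cells. It was the least counted of the 10 genes, with 72, 39 and 48 counts in WT-TAC and 50, 35 and 41 in KO-TAC, or 11.3, 4.48 and 6.57 CPM and 7.31, 4.25 and 6.06 CPM. WT-TAC replicate 1 was the highest library and the other 5 overlapped. The log2 fold change was −0.34 ± 0.44 (SE), and 0.083 without WT-TAC replicate 1. Leaving out KO-TAC replicate 3 gave −0.36. All 10 macrophage markers of the list used (Cd68, Adgre1, Csf1r, C1qa, C1qb, C1qc, Mrc1, Lyz2, Cd163 and Fcgr1) were tested and none was at 0. Their summed level was 307 to 336 CPM in WT-TAC and 248 to 460 in KO-TAC, highest in KO-TAC replicate 1, where Hmox1 was second. The sum was second in WT-TAC replicate 1, at 336 CPM, where Hmox1 was highest. Singly, 5 of the 10 markers were highest in KO-TAC replicate 1 and 4 of the 10 in WT-TAC replicate 1. Their part in the Hmox1 values was not tested. In bulk tissue, fewer cells of a type and less RNA per cell cannot be told apart.

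Gstm1 encodes a mu-class transferase that joins glutathione to electrophiles. It stood at 60.4, 75.1 and 81.1 CPM in WT-TAC and at 55.1, 78.9 and 73.0 in KO-TAC. Both groups held a lower replicate 1 and higher other libraries, and the log2 fold change was −0.066 ± 0.20 (SE), and −0.11 without KO-TAC replicate 3. Gstm2-ps1, a processed pseudogene with no row in the table, matches 657 bases of the longest Gstm1 coding transcript at 97.9% identity, so the split of reads between them is uncertain.

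Txnrd1, the cytosolic thioredoxin reductase, uses NADPH to keep thioredoxin reduced, and Prdx1, a peroxiredoxin of the cytosol, reduces hydrogen peroxide with electrons from thioredoxin. They are also among the genes whose promoter letters are printed above. Txnrd1 was among the steadiest of the 10 genes, at 48.4, 68.5 and 55.5 CPM in WT-TAC and 63.6, 55.3 and 57.3 in KO-TAC. All 3 KO-TAC values lay inside the WT-TAC range, and the log2 fold change was 0.029 ± 0.19 (SE), and 0.045 without KO-TAC replicate 3. Eid3, which lies on the same strand and overlaps Txnrd1, had 5 to 49 counts per library against 308 to 597 for Txnrd1, and reads they share cannot be told apart. Prdx1 stood at 85.1, 104 and 125 CPM in WT-TAC and at 111, 92.3 and 125 in KO-TAC. Its groups had nearly the same top value and overlapped, with a log2 fold change of 0.065 ± 0.20 (SE), and −0.043 without KO-TAC replicate 3. This is also the gene with the miR-204 seed match. The processed pseudogenes Gm21399 and Gm7204, with no rows in the table, match 597 bases of its longest coding transcript at 98.3% and 97.5%, so its level is uncertain to that extent.

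Gpx3 had the largest difference of the 10 genes. It encodes the secreted glutathione peroxidase of plasma, a selenoprotein that reduces peroxides outside cells. The values were 850, 377 and 433 CPM in WT-TAC and 423, 244 and 223 in KO-TAC. WT-TAC replicate 1 was far above every other library, KO-TAC replicate 1 lay between the other WT-TAC libraries, and KO-TAC replicates 2 and 3 were the lowest. The means were 553 ± 258 and 297 ± 110 CPM (SD, n = 3), and the log2 fold change was −0.90 ± 0.33 (SE). As a fold this is 0.537, and its interval ran from 0.322 to 0.894, with an unadjusted p of 0.0214 and an adjusted p of 0.999 in edgeR. The difference was below 0 under each of the 14 alternatives run but rested in part on single libraries. Without WT-TAC replicate 1 it was −0.45 (unadjusted p = 0.119 in edgeR), and with KO-TAC replicate 3, 2 or 1 left out it was −0.73 (0.0712), −0.77 (0.0728) and −1.24 (0.00285). In the same libraries other cell types' markers also moved. The 7 fibroblast markers (Col1a1, Col1a2, Col3a1, Dcn, Pdgfra, Lum and Tcf21, all tested, none at 0) summed to 1328 to 3043 CPM in WT-TAC and 1093 to 2780 in KO-TAC, and the sum was highest in WT-TAC replicate 1 and lowest in KO-TAC replicate 3, as Gpx3 was. Singly, 3 of the 7 were highest in the first of these libraries and 2 of the 7 lowest in the second, and Dcn was lowest in the first. The 6 atrial markers (Myl7, Myl4, Sln, Nppa, Kcnj3 and Nr2f2, all tested, none at 0) summed to 3113 to 8839 and 542 to 7797 CPM, with the same libraries at the ends. Nppa made up 7904 of the 8839 CPM. It alone of the 6 was highest in WT-TAC replicate 1, whereas 5 of the 6 were lowest in KO-TAC replicate 3. The 6 smooth muscle markers (Myh11, Acta2, Tagln, Cnn1, Lmod1 and Smtn, all tested, none at 0) summed to 307 to 454 and 160 to 335 CPM. Singly, 6 of the 6 were lowest in KO-TAC replicate 3 and 5 of the 6 highest in WT-TAC replicate 2. Their log2 fold changes ran from −1.50 for Lmod1 to −0.14 for Smtn, each with an adjusted p of 0.999 in edgeR. The part of these marker sets in the Gpx3 difference was not tested.

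**Figure D2:**
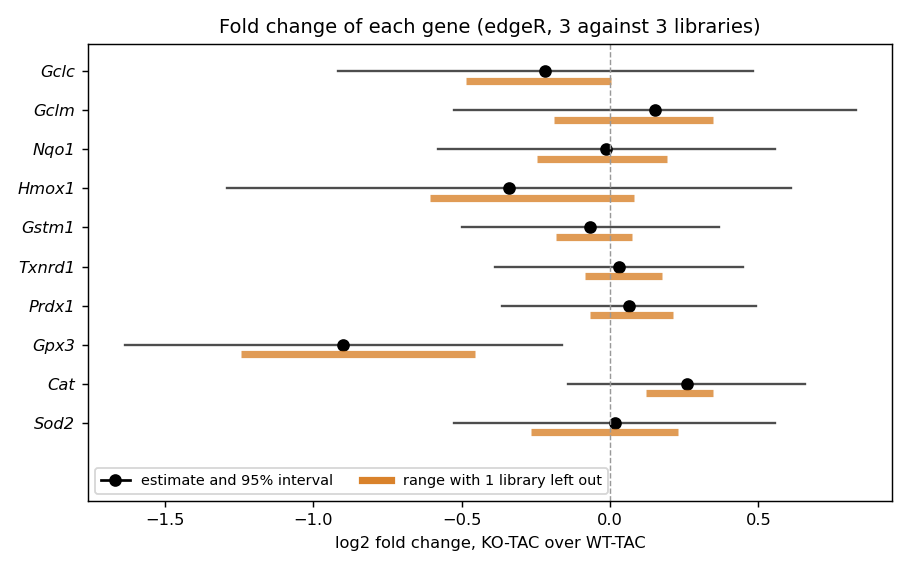
Log2 fold change of KO-TAC over WT-TAC for each gene (horizontal axis), with the estimate and its 95% interval in black and the range of estimates with 1 library left out in orange. The Gpx3 interval alone lies off 0, at −1.64 to −0.16, and the orange ranges of Gpx3 and Cat alone stay on one side of 0.

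Catalase, from Cat, breaks down hydrogen peroxide without a cofactor to be recharged and sits mainly in peroxisomes. It stood at 239, 258 and 247 CPM in WT-TAC and at 260, 280 and 351 in KO-TAC. The WT-TAC libraries were tightly grouped and the KO-TAC libraries all lay above them, the nearest by less than 2 CPM (258 against 260), and KO-TAC replicate 3 stood out. The order held with RLE, upper-quartile or no scaling, with the smallest gap under RLE, 256.6 against 256.7 CPM. The log2 fold change was 0.26 ± 0.19 (SE), with an unadjusted p of 0.188 in edgeR, and 0.12 without KO-TAC replicate 3. That library also had the highest share of heart muscle markers, 19.8% of the TMM-scaled library size against 12.7% to 16.1% in the others. Singly, 4 of the 7 heart muscle markers were highest in KO-TAC replicate 3 and 3 of the 7 in KO-TAC replicate 2. The lowest share, 12.7%, was that of KO-TAC replicate 1, where Cat stood at 260 CPM. The part of these markers in the Cat value was not tested. Red cells are rich in catalase. The globin genes Hba-a1, Hba-a2, Hbb-bs and Hbb-bt were listed at 0 in all libraries and give no measure of blood, and Alas2, the fifth erythroid marker, was at 40.6 to 71.6 CPM in WT-TAC and 22.6 to 52.5 in KO-TAC. The part of blood in the Cat values was not tested.

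Sod2, the manganese superoxide dismutase of the mitochondrial matrix, turns superoxide into hydrogen peroxide where respiration makes it. It stood at 250.4, 326 and 425 CPM in WT-TAC and at 268, 287 and 458 in KO-TAC. Replicate 3 was the highest and replicate 1 the lowest of each genotype, and the groups overlapped across nearly their whole range. The means were 334 ± 87.6 and 338 ± 104 CPM (SD, n = 3), with a log2 fold change of 0.016 ± 0.25 (SE). With no scaling beyond the library size it was −0.019, and without KO-TAC replicate 3 −0.27.

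Per kb of exon (all exons of a gene merged, GENCODE M21), Gpx3 came first, with a median of 221 CPM per kb over the 6 libraries and a range from 123 to 469. Cat followed at 99.0 (91.6 to 134), so that these neighbours overlapped between libraries. Gstm1 at 50.3 (37.4 to 55.0) lay below every Cat value. Prdx1 at 35.4, Sod2 at 30.6 and Nqo1 at 26.8 came next, and each overlapped its neighbour. Txnrd1 at 7.96 (6.84 to 9.67) stood apart from Nqo1 above and from Gclc below. Gclc at 3.96, Hmox1 at 3.61 and Gclm at 2.53 were the lowest and overlapped each other. The merged length counts long alternative ends, 10.008 kb for Sod2, 7.086 kb for Txnrd1 and 6.291 kb for Gclm, which lowers their values per kb.

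**Figure D3:**
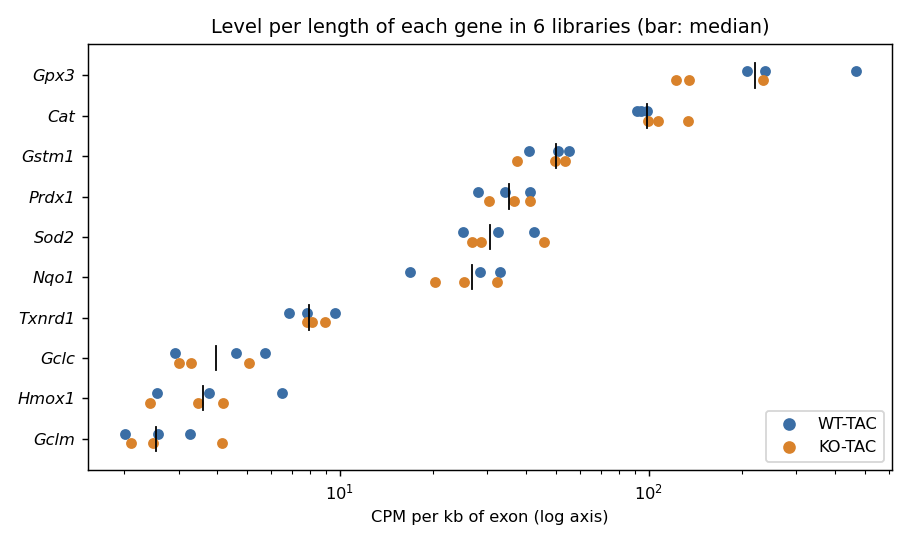
Level of each gene in CPM per kb of merged exon (log axis) in the WT-TAC (blue) and KO-TAC (orange) libraries, ordered by the median of 6 libraries (bar). Gpx3 and Cat are highest, Gclc, Hmox1 and Gclm lowest, and the genotypes overlap for each gene except Cat.

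WT-TAC replicate 1 was at an end of the order for 8 of the 10 genes: highest for Hmox1, Gclc and Gpx3 and lowest for Nqo1, Txnrd1, Cat, Sod2 and Prdx1. Over all tested genes it was at an end for 45.3%, the largest share of the 6 libraries. KO-TAC replicate 3 was highest for Gclm, Cat, Sod2 and Prdx1 and lowest for Gpx3, so 5 of 10, near its share of 39.1% of all tested genes. WT-TAC replicate 2 was at an end for 4 of 10, against 24.2%. WT-TAC replicate 3 and KO-TAC replicates 1 and 2 were each at an end for 1 of 10, against 28.5%, 33.3% and 29.6%. Within groups the SD of log2 CPM ran from 0.16 for Cat and 0.19 for Txnrd1 to 0.53 for Hmox1 and 0.57 for Gpx3. Its median over the 10 genes was 0.41, beside 0.35 over all tested genes. No library had all 10 genes above or all 10 below the gene's mean log2 CPM. In WT-TAC replicate 1, Gpx3 was 1.15 and Hmox1 0.85 above that mean, while Nqo1 was 0.58 below (−0.58). Other libraries were more one-sided. All genes but Txnrd1 and Cat lay above the mean in WT-TAC replicate 3, and all but Gstm1 and Cat lay below it in KO-TAC replicate 2.

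**Figure D4:**
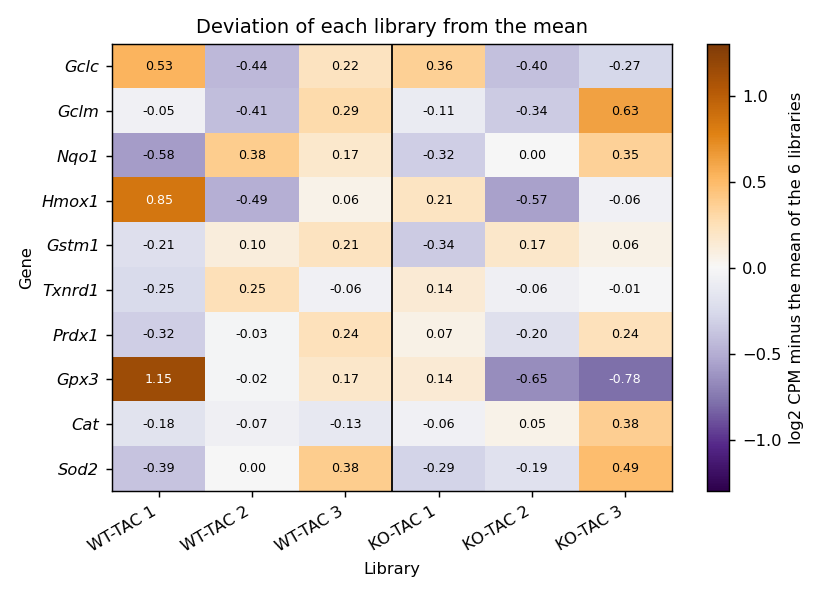
Log2 CPM of each gene (rows) in each library (columns) minus the mean of the 6 libraries, brown for above and purple for below. The columns of WT-TAC replicate 1 and KO-TAC replicate 3 hold the strongest colours, 1.15 and −0.78 for Gpx3, and no column has one colour throughout.

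The regulators of the pathway did not pass the test either. Nfe2l2, which encodes NRF2 itself, stood at 72.2, 62.1 and 74.9 CPM in WT-TAC and 69.5, 66.0 and 60.1 in KO-TAC, overlapping, with a log2 fold change of −0.096 ± 0.18 (SE). Keap1, its inhibitor, stood at 58.7, 51.1 and 47.9 CPM in WT-TAC and 39.7, 43.9 and 45.7 in KO-TAC, so that all KO-TAC libraries lay below. Its log2 fold change was −0.29 ± 0.19, with an unadjusted p of 0.153 and an adjusted p of 0.999 in edgeR. Bach1 had a log2 fold change of −0.088 ± 0.18 and overlapping groups. Maff, a small MAF partner, had 0.62 ± 0.43, from 4.52 to 11.2 CPM in WT-TAC and 6.35 to 18.8 in KO-TAC. Its log2 fold change ran from 0.23 when KO-TAC replicate 1 was left out to 0.94 when KO-TAC replicate 3 was. Of the 10 regulators listed, all were tested, 2 were higher and 8 lower in estimate, and 0 were called.

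Other genes of the redox system were taken from 9 lists of 103 genes, regulators included, and 96 passed the filter. Of these, 0 were called in edgeR over all genes and 0 had an unadjusted p under 0.05, and DESeq2 and limma-voom also called 0. Without KO-TAC replicate 3, 0 were called and 7 of 97 tested (7.22%) had an unadjusted p under 0.05, beside 5.58% of all genes tested in that fit. The estimates were above 0 for 53 and below 0 for 43, with a median log2 fold change of 0.023. Over all 12487 tested genes, 6266 were above 0 and 6221 below, with a median of 0.0012. The counts of higher estimates per list below are to be read beside that near-even split. All KO-TAC libraries lay above all WT-TAC libraries for 6 of 96 (6.25%) and below for 6 of 96 (6.25%), beside 4.26% and 3.72% of all tested genes. These counts hold for TMM and change with the scaling. Among the genes named here, Gpx4 left the first set with upper-quartile or no scaling. Mt2 joined the second set with RLE or no scaling. In glutathione synthesis and use, 10 of 15 tested estimates were higher. Gpx4, the peroxidase that reduces lipid peroxides, stood at 152, 191 and 214 CPM in WT-TAC and 271, 236 and 214 in KO-TAC (log2 fold change 0.37 ± 0.19 (SE), unadjusted p = 0.0739 in edgeR). Glrx2, a mitochondrial glutaredoxin, had −0.43 ± 0.29, and −0.23 without WT-TAC replicate 1. Of the glutathione transferases, 8 of 15 were higher, with Mgst3, a microsomal enzyme, at 0.34 ± 0.18 and Gstm4 at 0.66 ± 0.39, and 0.90 without KO-TAC replicate 3. Gstm4 is a relative of Gstm1 and the 5.35 to 10.9 CPM it had are small beside the 55.1 to 81.1 of Gstm1.

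In the thioredoxin and peroxiredoxin list, 12 of 18 estimates were higher. Msrb1, a selenoprotein that repairs oxidised methionine, had the smallest p of all 96 genes. It stood at 44.8, 41.8 and 36.4 CPM in WT-TAC and 33.5, 31.2 and 27.2 in KO-TAC, with no overlap, a log2 fold change of −0.42 ± 0.21 (SE), an unadjusted p of 0.0608 and an adjusted p of 0.999 in edgeR. Prdx4, the peroxiredoxin of the endoplasmic reticulum, had 0.65 ± 0.38, and 0.25 without KO-TAC replicate 1. The other superoxide dismutase genes and their copper chaperone had 3 of 3 estimates higher, with Ccs at 0.44 ± 0.28 and Sod3, the extracellular enzyme, at 0.19 ± 0.25. In NADPH supply, which feeds glutathione and thioredoxin reduction, 6 of 8 were higher. G6pdx, the entry enzyme of the pentose phosphate pathway, had −0.62 ± 0.34, with 14.5, 9.30 and 11.5 CPM in WT-TAC and 7.60, 9.11 and 6.06 in KO-TAC. Me1, the cytosolic malic enzyme, had 0.22 ± 0.23, and 0.022 without WT-TAC replicate 1.

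Heme, iron and metal binding genes were higher for 4 of 8, with Mt2, a metallothionein, at −0.83 ± 0.49 and 1.61 CPM in KO-TAC replicate 1 against 5.91 to 10.9 in the other libraries. Without that library its log2 fold change was −0.42. Hmox2, the constitutive heme oxygenase, had 0.33 ± 0.22, and 0.065 without KO-TAC replicate 2. NRF2-linked detoxification genes were higher for 4 of 10, and the exporters Abcc4 and Abcc1 had −0.39 ± 0.22 and −0.31 ± 0.18, each with all KO-TAC libraries below. Oxidant sources were higher for 4 of 9, with Nox4, an oxidase that makes hydrogen peroxide, at 0.43 ± 0.38, and 0.86 without WT-TAC replicate 1, and Cyba, a membrane subunit of the NADPH oxidases, at 0.17 ± 0.30. None of these was called. The filter removed 7 listed genes. Slc7a11, the cystine transporter that supplies glutathione synthesis, had 2 counts in 1 library and 0 in the others, and Gsta1, Gsta2, Gstm3, Gstm6 and Mgst2 had at most 15 in a library. Gstp2, a pi-class transferase, had 2, 4 and 9 counts in WT-TAC and 9, 15 and 24 in KO-TAC, or 0.669 ± 0.494 and 2.23 ± 1.17 CPM (SD, n = 3), with no overlap in CPM (1.23 against 1.32 for the nearest libraries) and no test in the filtered fit. With no filter on low counts, 0 of all 103 listed genes had an unadjusted p under 0.05 in edgeR.

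**Figure D5:**
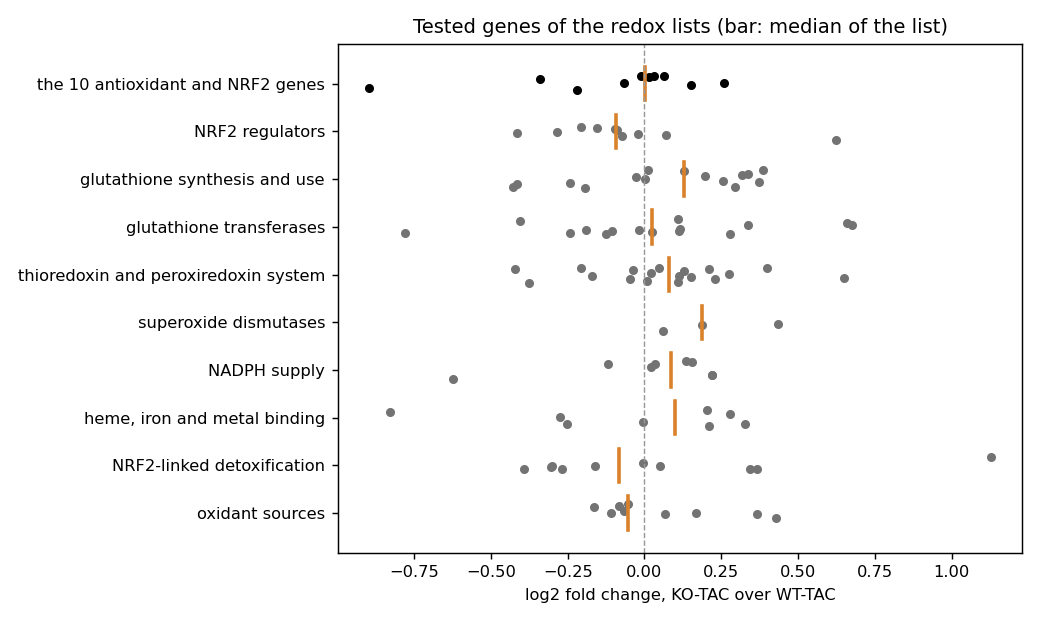
Log2 fold change of KO-TAC over WT-TAC (horizontal axis) of each tested gene of the redox lists (points) with the median of each list (orange bar), and the 10 antioxidant and NRF2 genes in the top row. Medians lie from −0.092 for the regulators to 0.19 for the superoxide dismutases, and Gpx3, at −0.90, is the lowest of all points shown.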

How the data were processed

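Counts were taken as the authors deposited them, raw whole-number read counts per gene symbol with no normalization. Per the submitters' processing notes, the tools were FastQC, HISAT2 2.1.0, Subread and edgeR, and the builds mm10 and GRCm38; which tool did which step is not stated there. Per the labels' protocols, the TruSeq kit was plain or stranded. The kit of each library and the strand setting are not given in the sources used here, and overlapping genes cannot be told apart. All 6 columns were used. The 10 genes and the gene lists were chosen with earlier results of these data known.

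Genes passed filterByExpr (minimum count 10), libraries were scaled by TMM, and edgeR 4.0.16 in R 4.3.3 fitted a robust quasi-likelihood model of genotype with no covariate, adjusted by Benjamini-Hochberg over all 12487 genes. SE is the size of the log2 fold change divided by the root of F, and intervals use the t distribution of the same fit. Totals ran from 6411538 to 8571737 counts. Same-numbered libraries deviated from their group means with correlations of 0.13, 0.011 and 0.26, against −0.22 to 0.15 for libraries of different number. With so few pairs these values do not settle whether the numbers pair the samples, and the main fit used no block. Genes named outside the 10 are Nfe2l2, Keap1 and Bach1 and, of each list, the 2 smallest p values. The 7 genes that the filter removed were named after their values were seen. Alternatives were other scalings and filters, DESeq2 1.42.0, limma-voom (limma 3.58.1), the replicate block, each library left out, and a threshold of 0.1.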

Additional observations from a re-analysis of the deposited data

How the results depend on the processing

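None of the 10 genes was called in any of the 15 alternatives, which were other scalings and filters, DESeq2, limma-voom, a replicate block, each library left out and an adjusted p under 0.1. The count over all tested genes went from 3 to 21 with no filter on low counts, 16 in DESeq2, 0 in limma-voom (376 at an unadjusted p under 0.05), 6 with the replicate block, and 0 to 7 with 1 library left out. Of 140 values of the 10 genes under the alternatives, 121 kept their direction and 19 did not. The replicate block turned Nqo1 to 0.015, no scaling turned Sod2 to −0.019, and the other 17 came with 1 library left out. Log2 fold changes then ran from −0.25 to 0.19 for Nqo1, −0.61 to 0.083 for Hmox1, −0.48 to 0.0026 for Gclc, −0.19 to 0.35 for Gclm, −0.082 to 0.18 for Txnrd1, −0.18 to 0.074 for Gstm1, −0.27 to 0.23 for Sod2, −0.068 to 0.21 for Prdx1, −0.089 to 0.38 for Sod3 and −0.16 to 0.36 for Cyba; the cause was not tested. Gpx3 ran from −1.24 to −0.45 and Cat from 0.12 to 0.35. With the replicate block Gpx3 had an adjusted p of 0.114 in edgeR, the lowest over its alternatives. The labels give only a shared number, and whether it pairs the samples was not settled. Hmox1 had the fewest counts of the 10, and its counting error was 14.5% beside a biological coefficient of variation of 36.6% in edgeR.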
